A study of Mus musculus with 27 samples.

Results

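The insulin-like growth factor (IGF) genes were followed in C2C12 cells that expressed either full-length NFIA, a transcription factor of the nuclear factor I family, or a shortened mutant of it. The 10 genes, out of 24825 in the files, were the ligands Igf1 and Igf2, the receptors Igf1r and Igf2r, and the binding proteins Igfbp2, Igfbp3, Igfbp4, Igfbp5, Igfbp6 and Igfbp7, and all 10 were found by their symbols. They were chosen as a family by name, and Igfbp2 was also selected on its measured FPKM, as one of the deepest falls with the mutant at day 0. In that comparison Igfbp2 held place 2 of 12105 genes, with a log2 difference from control of -4.51, between Pdlim3 at -4.57 and Lrrn1 at -4.38. Comparisons with the day 0 libraries of the mutant are therefore described without a test, and so is Igfbp2 wherever the day 0 control libraries are compared. Both sets of libraries still entered the shared estimate of spread in the fits that held day 0 samples.

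C2C12 is an established mouse line of myoblasts, the precursor cells that fuse into muscle fibres. Control cells, cells expressing full-length NFIA and cells expressing the Δpro#3 mutant, which lacks a proline-rich stretch at the C-terminus, were each sampled at day 0, at day 7 of an adipogenic protocol, and at day 7 after forskolin (10 µM for 4 hours), giving 9 groups of 3 samples. The proteins were introduced with retroviral vectors and carried a 3xFLAG tag, and neither the content of the control vector nor whether the cells were pools or clones is given in the sources used here. By the labels' protocol all day 7 groups had received insulin (850 nM), T3 (1 nM), rosiglitazone (1 µM) and serum (10% FBS). For the initial 48 hours it also gave isobutylmethylxanthine (0.5 mM), indomethacin (125 nM) and dexamethasone (1 µM). By that protocol insulin was present in each of these groups. The paper gives these doses for immortalized stromal vascular cells of fat, and for C2C12 cells it refers to an earlier study. Forskolin activates adenylyl cyclase and raises cyclic AMP. Nothing in the labels says that the replicates came from separate cultures, and the p-values then measure the spread between these samples, which may be technical.

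IGF1 and IGF2 are secreted peptides that signal through the receptor tyrosine kinase encoded by Igf1r, which feeds the PI3K-AKT and MAPK pathways. The receptor encoded by Igf2r has no kinase and takes IGF2 to the lysosome. The binding proteins hold the ligands outside the cell, where proteases such as pappalysins and HTRA1 can cut them, and several also act without a ligand. In cultured myoblasts, IGF2 made by the cells themselves accompanies differentiation into muscle fibres, and IGFBP5 is a main binding protein that these cells secrete. In fat precursors, IGF1 signalling favours differentiation into adipocytes.

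The 27 libraries held between 9567769 and 27230965 fragments. Nfia itself, for which the introduced and the native copy are counted together, stood at 225 to 594 FPKM (fragments per gene length and library size) in the 9 libraries with full-length NFIA and at 262 to 480.5 FPKM in the 9 libraries with the mutant. The mutant libraries held more of it at day 0 (397 to 423 against 225 to 250.2 FPKM) and less with forskolin (262 to 344 against 497 to 594 FPKM), and the part of these levels in the comparisons of the 2 proteins was not tested. Among the 9 control libraries, 8 had 0.0885 to 0.879 FPKM of Nfia and control day 0 replicate 2 had 7.35 FPKM. Without that library no call on the IGF genes changed. The summed level of 10 myoblast and muscle markers was 1411 to 1494 FPKM in control cells at day 0, 138 to 146 with full-length NFIA and 411 to 421 with the mutant. At day 7 it was 9998 to 11575, 1780 to 2405 and 11401 to 11880 FPKM, in the same order. The highest single muscle marker value at day 0 was 119 FPKM with full-length NFIA and 304 with the mutant, most of the sum in those libraries. The summed level of 10 adipocyte markers was 45.7 to 55.0 FPKM in control cells at day 0, 439.9 to 467 with full-length NFIA and 331 to 347 with the mutant. At day 7 that sum was 369.9 to 408 FPKM in control cells, 13910 to 15457 with full-length NFIA and 658 to 2084 with the mutant, whose replicate 1 was the high library. The highest single adipocyte marker value at day 0 was 38.8 FPKM in control cells, 398 with full-length NFIA and 311 with the mutant. With full-length NFIA at day 7 it was 12147 FPKM. A single marker thus held most of the sum in the libraries with these values. At day 0, 5 of the 10 adipocyte markers reached a mean of 1 FPKM in control cells and 6 with either protein. Endothelial markers summed to at most 1.43 FPKM in any library, and of the 5 leukocyte markers in the files only Cd68 reached a mean of 1 FPKM. Marker RNA of muscle and fat cells thus differed between groups along with the IGF genes, and its part in their levels was not tested. In such bulk samples fewer cells of a type and less RNA per cell cannot be told apart.

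The sequences before 4 of the starts are shown because these genes had the deepest falls (Igfbp2, Igfbp5) or rises (Igf1, Igfbp3) with full-length NFIA at day 0. Each line holds the 250 bases before the RefSeq start (RefSeq table of GRCm38.p6), read 5′ to 3′ on the gene's strand, and the positions are those of the exact match in NCBIM37 (mm9), the build of the files. Capitals mark each copy of TTGGC, the core of the NFI site, on either strand, and each CANNTG, the E-box bound by myogenic factors, among others. The Igf1 window (chr10:87323606-87323855, plus strand) lies within the longer gene model of GENCODE vM1, and the Igfbp5 window (chr1:72921440-72921689, minus strand) overlaps the beginning of that gene model. The Igfbp2 window (chr1:72870804-72871053, plus strand) and the Igfbp3 window (chr11:7113927-7114176, minus strand) lie before their gene models.
Igfbp2: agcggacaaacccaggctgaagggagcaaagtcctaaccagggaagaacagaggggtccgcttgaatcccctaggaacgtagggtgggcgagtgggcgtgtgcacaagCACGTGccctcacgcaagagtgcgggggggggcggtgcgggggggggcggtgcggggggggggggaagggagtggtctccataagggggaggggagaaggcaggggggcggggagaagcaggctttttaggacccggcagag
Igfbp5: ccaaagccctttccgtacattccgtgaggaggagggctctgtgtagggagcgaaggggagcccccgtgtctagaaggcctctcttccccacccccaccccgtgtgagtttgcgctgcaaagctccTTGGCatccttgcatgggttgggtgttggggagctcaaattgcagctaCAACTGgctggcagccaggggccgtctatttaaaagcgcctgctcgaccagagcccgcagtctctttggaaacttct
Igf1: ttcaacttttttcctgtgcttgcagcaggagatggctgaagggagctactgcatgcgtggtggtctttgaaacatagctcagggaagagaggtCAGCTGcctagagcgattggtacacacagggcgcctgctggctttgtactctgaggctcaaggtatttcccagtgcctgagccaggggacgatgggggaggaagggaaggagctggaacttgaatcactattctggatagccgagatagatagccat
Igfbp3: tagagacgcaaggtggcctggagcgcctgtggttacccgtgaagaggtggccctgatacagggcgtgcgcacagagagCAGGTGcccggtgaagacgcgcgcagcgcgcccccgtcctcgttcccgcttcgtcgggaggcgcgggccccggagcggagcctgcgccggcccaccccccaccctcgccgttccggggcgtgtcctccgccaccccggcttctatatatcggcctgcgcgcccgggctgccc
The full palindromic NFI site, this core and its reverse complement 5 bases apart, was in none of the 10 windows of the IGF genes, and in 0.0407% of 27025 RefSeq windows of the same length. The core alone was in 2 windows, those of Igfbp5 (125 to 121 bases before the start) and Igfbp7, against 41.9% of all windows. An E-box was in 8 of the 10 windows, all but those of Igf1r and Igfbp7, against 66.1% of all windows. In the Igf1 window it had the form CAGCTG (157 to 152 bases before the start), which 12.7% of all windows held and no other window of the IGF genes did. TGACG, the core of the cyclic AMP response element, was in the Igf2r window alone, against 17.8% of all windows. These are matches of letters only, in a short stretch of each gene.

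Differences between groups are given as log2(FPKM + 1), with genes of a mean of at least 0.5 FPKM tested by limma and called at an adjusted p under 0.05. With full-length NFIA at day 0, 4 of the 9 IGF genes tested rose and 5 fell, beside 37.7% of all 12105 genes that rose and 35.6% that fell. At day 7, 5 of 10 rose and 5 fell with full-length NFIA (31.3% and 41.1% of all genes), and with forskolin 3 rose and 6 fell (25.5% and 47%). With the mutant, 4 of 10 were higher and 5 lower than control at day 7 (21.3% and 27.5%), and 2 were higher and 6 lower with forskolin (19.5% and 27.1%). Between the mutant and full-length NFIA, 4 were higher and 4 lower at day 7 (34.3% and 29.4%) and 5 higher and 4 lower with forskolin (42% and 24.2%). Most genes of the family passed the test, and in the comparisons with full-length NFIA so did most of all genes tested. The comparisons of one stage share samples, so their counts are not independent of each other.

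With a change over 3-fold in FPKM + 1 as well, full-length NFIA raised Igf1 and Igfbp3 and lowered Igfbp5 at day 0, beside 2.46% of all genes that rose and 2.78% that fell past both thresholds. At day 7 it raised Igfbp3 and lowered Igf2 (4.87% and 3.3%), and with forskolin it raised Igfbp3 and lowered Igf2 and Igfbp2 (4.25% and 3.77%). No IGF gene passed both thresholds between mutant and control at day 7 (1.44% of all genes) or with forskolin (1.55%), where limma at an adjusted p under 0.05 alone called 9 and 8 of them. As plain mean FPKM at day 7, control against mutant, Igfbp3 (3.40 against 0.512) and Igfbp4 (39.3 against 12.6) did lie over 3-fold apart. With forskolin so did Igf1 (11.1 against 3.68). Between mutant and full-length NFIA, Igfbp3 and Igfbp4 were over 3-fold lower at day 7 (3.7%), and with forskolin Igf2 was higher (2.89%) and Igf1 and Igfbp3 were lower (3.31%). At day 0, where no test was made, the mutant stood over 3-fold below control for Igfbp2, Igfbp4 and Igfbp5 (1.32% of all genes lay past that fold in this direction). Against full-length NFIA it stood over 3-fold higher for Igfbp2 and Igfbp5 (0.925%) and lower for Igf1 and Igfbp3 (1.12%).

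**Figure D1:**
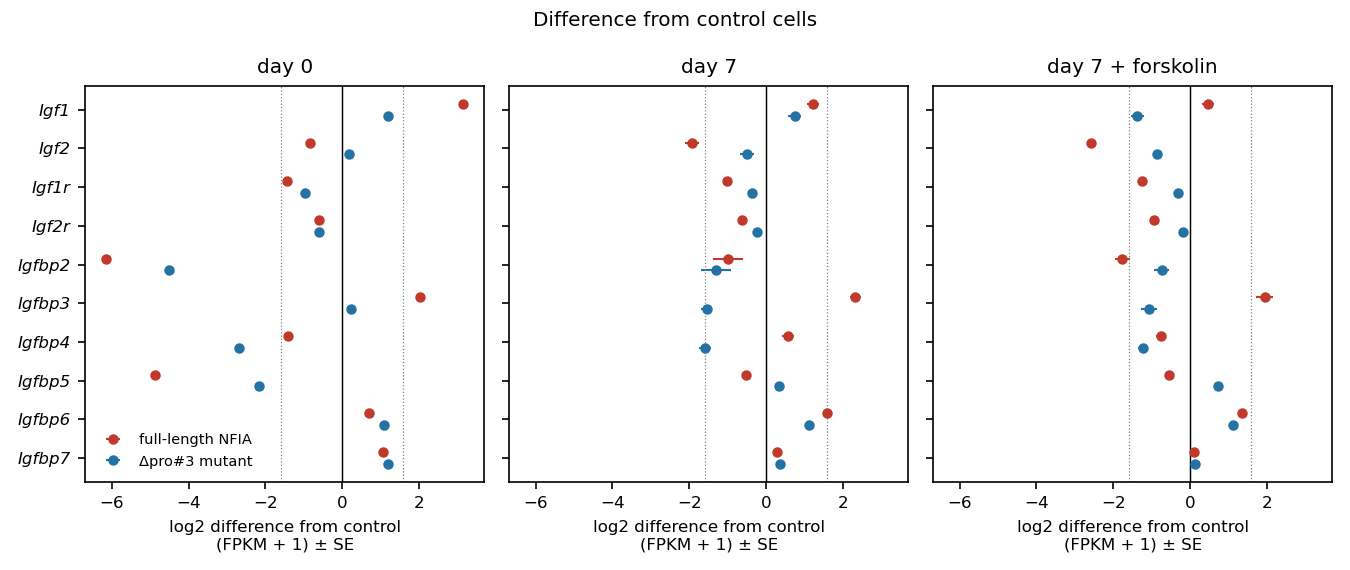
Difference of each IGF gene from control cells (x axis, log2 of FPKM + 1, with the standard error of the fit) at day 0, day 7 and day 7 with forskolin, for full-length NFIA (red) and the Δpro#3 mutant (blue), with dotted lines at 3-fold. For full-length NFIA, Igfbp2 and Igfbp5 lie farthest to the left at day 0, and Igfbp3 lies on opposite sides of 0 for the 2 proteins at day 7 and with forskolin.

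Igf1, the ligand for the IGF1 receptor, was low in control myoblasts and high with full-length NFIA. At day 0 the 3 libraries had 2.21, 2.76 and 2.05 FPKM in control cells, 27.2, 26.7 and 31.8 with full-length NFIA, and 6.49, 6.997 and 6.53 with the mutant. The 3 groups did not overlap, and the mutant lay between the other two. Full-length NFIA raised Igf1 by 3.15 on the log2 scale (SE 0.0828, limma adjusted p = 8.08e-11). The mutant stood 1.20 above control and 1.94 below full-length NFIA, both on the log2 scale and not tested.

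At day 7 Igf1 had 7.77, 6.99 and 5.92 FPKM in control cells, 17.4, 18.4 and 16.5 with full-length NFIA, and 16.4, 9.30 and 11.8 with the mutant. The mutant libraries were spread over the gap between the other groups, and the highest of them was the replicate 1 that also had the most adipocyte marker RNA. Igf1 was higher than control with full-length NFIA (log2 difference 1.23, SE 0.163, limma adjusted p = 6.03e-05) and with the mutant (0.75, SE 0.163, limma adjusted p = 0.00378). The mutant was lower than full-length NFIA by a log2 difference of -0.48 (limma adjusted p = 0.0243). That call was lost without any one of 4 libraries, full-length NFIA replicate 1 or 2 or mutant replicate 2 or 3, where the difference lay between -0.48 and -0.30 and the adjusted p between 0.0540 and 0.0833.

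After forskolin Igf1 split the 2 proteins. Its level was 13.0, 8.32 and 12.02 FPKM in control cells, 14.0, 16.3 and 16.8 with full-length NFIA, and 4.60, 3.37 and 3.05 with the mutant. All 3 mutant libraries lay below every library of the other groups. Compared with day 7 without forskolin, Igf1 fell in the mutant by 1.51 on the log2 scale (SE 0.176, limma adjusted p = 5.63e-06), rose in control cells by 0.60 (limma adjusted p = 0.0216) and differed by -0.15 in cells with full-length NFIA (limma adjusted p = 0.499). The response in the mutant was lower than that in control cells by 2.11 on the log2 scale (SE 0.248, limma adjusted p = 0.000118), over 3-fold, and Igf1 alone among the 10 showed such a difference between responses (2.5% of all genes were lower by the test and 0.0572% also by over 3-fold). The rise in control cells was lost without control day 7 replicate 2 or 3 or forskolin replicate 1 or 3, where it was 0.49 to 0.62 and the adjusted p 0.0516 to 0.104. Igf1 with forskolin was below control with the mutant (log2 difference -1.37, SE 0.158, limma adjusted p = 5.62e-05) and above it with full-length NFIA (0.48, SE 0.158, limma adjusted p = 0.0178). The latter call was lost without control replicate 2 (0.30, adjusted p = 0.0689) and without NFIA replicate 2 or 3 (0.45 and 0.43, adjusted p = 0.0511 and 0.0565).

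Igf2, the ligand that muscle cells make as they differentiate, had the steepest rise of the family in control cells over the protocol. Control libraries had 8.52, 8.68 and 8.83 FPKM at day 0 and 190.1, 204 and 206 at day 7. Full-length NFIA libraries had 3.47, 4.57 and 5.54 FPKM at day 0 and 73.8, 38.3 and 49.3 at day 7. Mutant libraries had 9.66, 9.97 and 10.1 FPKM at day 0 and 125, 156 and 147 at day 7. The groups at day 7 did not overlap, and replicate 1 was the high library with full-length NFIA. Igf2 rose from day 0 to day 7 by 4.38 on the log2 scale in control cells (SE 0.167, limma adjusted p = 4.06e-13) and by 3.28 with full-length NFIA (SE 0.167, limma adjusted p = 1.05e-11). Full-length NFIA lowered it at day 0 (log2 difference -0.82, SE 0.105, limma adjusted p = 3.36e-05) and at day 7 (-1.93, SE 0.188, limma adjusted p = 6.23e-06). The mutant differed from control at day 7 by -0.49 (SE 0.188), with a limma adjusted p of 0.0527. That p was 0.0288 with limma-voom on whole fragments, 0.0437 with a minimum of 5 FPKM and 0.00248 with only the groups compared, and 0.0572 to 0.200 with the pseudocount of 0.1, scaling, the replicate block or no filter.

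Forskolin left the order of Igf2 as it was. With forskolin Igf2 had 196, 207 and 209 FPKM in control cells, 37.9, 32.1 and 30.7 with full-length NFIA, and 114, 116 and 104 with the mutant, and the groups did not overlap. Full-length NFIA was lower than control by 2.57 on the log2 scale (SE 0.0778, limma adjusted p = 3.65e-10) and the mutant by 0.87 (SE 0.0778, limma adjusted p = 9.15e-06). The mutant was higher than full-length NFIA by 1.70 (SE 0.0778, limma adjusted p = 1.20e-08). Forskolin lowered Igf2 in cells with full-length NFIA by 0.62 (SE 0.156, limma adjusted p = 0.00306), and the difference was -0.37 without day 7 replicate 1 (adjusted p = 0.0111). As a ratio of FPKM, Igf2 to Igf1 was 0.157 ± 0.0260 (SD, n = 3) with full-length NFIA at day 0, the only group in which Igf1 exceeded Igf2. The ratio was 3.76 ± 0.579 in control cells at day 0 and 29.5 ± 5.13 at day 7, 3.10 ± 1.08 with full-length NFIA at day 7, and 31.1 ± 5.47 with the mutant and forskolin.

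**Figure D2:**
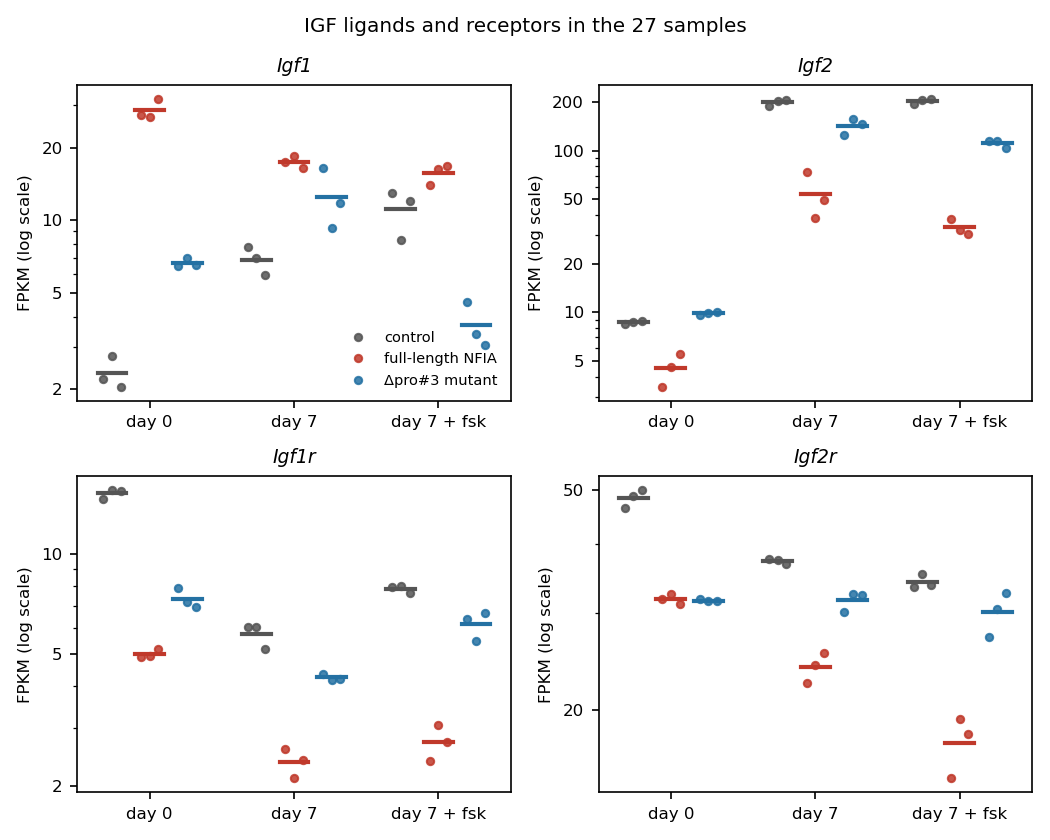
FPKM (y axes, log scale) of the ligands and receptors in each sample (points) with group means (lines), for control (grey), full-length NFIA (red) and the Δpro#3 mutant (blue). Igf1 is highest with full-length NFIA at day 0 at 26.7 to 31.8 FPKM, Igf2 is higher at day 7 than at day 0 in all groups and lowest with full-length NFIA, and both receptors are lower with full-length NFIA than in control cells at each stage.

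H19, a maternally expressed imprinted RNA that shares enhancers with Igf2, lies 72625 bases from it on chromosome 7 (Igf2 chr7:149836673-149852721 and H19 chr7:149761434-149764048, both minus strand). H19 had 1446 to 1483 FPKM in control cells at day 0, 233 to 260.3 with full-length NFIA and 985 to 1042 with the mutant. At day 7 it had 9732 to 11078, 1481 to 1576 and 8514 to 10968 FPKM, in the same order, so that full-length NFIA stood apart at both times while control and mutant overlapped at day 7. Full-length NFIA lowered H19 by 2.58 on the log2 scale at day 0 (limma adjusted p = 4.38e-12) and by 2.75 at day 7 (limma adjusted p = 6.11e-09), and the mutant differed from control by -0.06 at day 7 (limma adjusted p = 0.664). Over the 9 group means of log2(FPKM + 1) the Pearson correlation of Igf2 with H19 was 0.93, a description of groups that share constructs and time points.

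**Figure D3:**
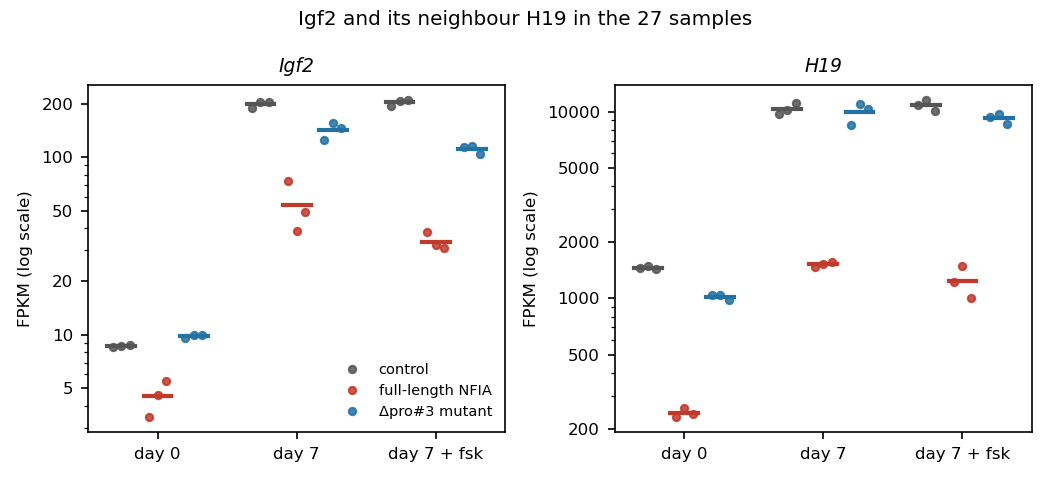
FPKM (y axes, log scale) of Igf2 and H19 in each sample (points) with group means (lines). Full-length NFIA (red) lies below control (grey) at each stage for both, and the mutant (blue) lies between the other groups for Igf2 at day 7 and overlaps control for H19 at day 7 but not at day 0.

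Over the 9 group means of FPKM + 1, the receptors spanned less (Igf1r 4.83-fold, Igf2r 2.67-fold) than the ligands (Igf1 8.86-fold, Igf2 37.1-fold). Both receptors were lower with full-length NFIA than in control cells at every stage. Igf1r, the signalling receptor, had 14.6 to 15.6 FPKM in control cells at day 0, 4.92 to 5.17 with full-length NFIA and 6.94 to 7.90 with the mutant. The day 7 levels were 5.19 to 6.03, 2.12 to 2.58 and 4.18 to 4.36 FPKM, and with forskolin 7.62 to 8.01, 2.38 to 3.06 and 5.49 to 6.66 FPKM, in the same order. At each stage control cells were highest, full-length NFIA was lowest and the mutant lay between, with no overlap. Full-length NFIA lowered Igf1r by 1.43 at day 0 (SE 0.0483, limma adjusted p = 5.48e-10), 1.00 at day 7 (SE 0.0785, limma adjusted p = 1.14e-06) and 1.26 with forskolin (SE 0.0868, limma adjusted p = 2.37e-07), all on the log2 scale. The mutant lowered it at day 7 by 0.36 (limma adjusted p = 0.00386) and with forskolin by 0.31 (limma adjusted p = 0.0134), and the latter call was lost without mutant replicate 2 (-0.24, adjusted p = 0.0550). Forskolin raised Igf1r in control cells by 0.40 (limma adjusted p = 0.00218) and with the mutant by 0.45 (limma adjusted p = 0.000489).

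Igf2r, the clearance receptor, was the steadiest member after Igfbp7, with 17.5 FPKM as its lowest and 48.4 FPKM as its highest group mean. At day 0 it had 46.4 to 49.9 FPKM in control cells, 31.1 to 32.4 with full-length NFIA and 31.5 to 31.7 with the mutant, so that the 2 proteins gave overlapping values below control. The day 7 levels were 36.8 to 37.5, 22.4 to 25.4 and 30.1 to 32.5 FPKM, and there the mutant stood apart from both. Full-length NFIA lowered Igf2r by 0.59 at day 0 (SE 0.0318, limma adjusted p = 2.54e-08), by 0.62 at day 7 (SE 0.0564, limma adjusted p = 3.72e-06) and by 0.93 with forskolin (SE 0.0897, limma adjusted p = 3.67e-06), on the log2 scale. The mutant lowered it at day 7 by 0.23 (limma adjusted p = 0.00749) and differed by -0.18 with forskolin (limma adjusted p = 0.126). Igf2r fell with forskolin in cells with full-length NFIA by 0.44 (limma adjusted p = 0.000171).

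Among the binding proteins, Igfbp2 and Igfbp5 made up most of the family's RNA in control myoblasts. They are neighbours on chromosome 1, transcribed towards each other with 5458 bases between their ends (Igfbp2 chr1:72871077-72899048, plus strand, and Igfbp5 chr1:72904506-72921458, minus strand). At day 0 Igfbp2 had 541, 524 and 527 FPKM in control cells, 6.23, 6.02 and 7.11 with full-length NFIA, and 23.3, 20.9 and 23.0 with the mutant. No library with either protein came near a control library. Full-length NFIA stood at a log2 difference of -6.16 from control and the mutant at -4.51, 1.65 above full-length NFIA, all described and not tested. In control cells at day 7 Igfbp2 had 16.8, 16.4 and 20.2 FPKM, 4.83 below day 0 on the log2 scale, so the high level belonged to control cells at day 0.

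At day 7 the Igfbp2 values with full-length NFIA were 5.54, 4.97 and 20.5 FPKM, and with the mutant 5.56, 6.57 and 7.86. Replicate 3 with full-length NFIA stood at the level of the control libraries and apart from its own group. Igfbp2 was lower than control by 0.99 on the log2 scale with full-length NFIA (SE 0.394, limma adjusted p = 0.0439) and by 1.30 with the mutant (SE 0.394, limma adjusted p = 0.0205). Without that replicate the fall with full-length NFIA was 1.58 (adjusted p = 6.33e-06), and without any other single library of the 2 groups it was 0.66 to 1.04 and not called (adjusted p of 0.0735 to 0.166). The difference between mutant and full-length NFIA was -0.31 (limma adjusted p = 0.514) and turned to 0.28 without that replicate. The mutant's call was lost without control replicate 3 (-1.21, adjusted p = 0.0650) or mutant replicate 1 (-1.19, adjusted p = 0.0599).

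With forskolin Igfbp2 had 44.3, 46.3 and 38.8 FPKM in control cells, 11.9, 12.1 and 11.9 with full-length NFIA, and 16.2, 31.1 and 32.4 with the mutant. The groups did not overlap, although mutant replicate 1 was closer to full-length NFIA than to its own group. Full-length NFIA was below control by 1.76 on the log2 scale (SE 0.201, limma adjusted p = 1.42e-05) and the mutant by 0.74 (SE 0.201, limma adjusted p = 0.0120). The mutant's difference was -0.43 without its replicate 1 (adjusted p = 0.00119), and with no filter on low values its call was lost (adjusted p = 0.0871). Forskolin raised Igfbp2 in control cells by 1.23 (SE 0.346, limma adjusted p = 0.0176) and with the mutant by 1.80 (SE 0.346, limma adjusted p = 0.000740). With full-length NFIA the response was 0.46 (limma adjusted p = 0.276), and 1.05 without day 7 replicate 3 (adjusted p = 0.000661). The call in control cells was lost without day 7 replicate 1 or 2 or forskolin replicate 1 or 2 (1.18 to 1.21, adjusted p of 0.0517 to 0.0582).

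Igfbp5 followed Igfbp2 at day 0 and parted from it later. At day 0 Igfbp5 had 671, 698 and 725 FPKM in control cells, 20.8, 22.7 and 24.6 with full-length NFIA, and 153, 160.0 and 151 with the mutant. The 3 groups were far apart, and the mutant lay between. Full-length NFIA lowered Igfbp5 by 4.89 on the log2 scale (SE 0.0544, limma adjusted p = 1.92e-13). The mutant stood 2.17 below control and 2.72 above full-length NFIA, not tested.

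At day 7 Igfbp5 had 303, 301 and 258 FPKM in control cells, 191, 184 and 231 with full-length NFIA, and 325, 371 and 402 with the mutant. The groups still did not overlap, and the mutant was now the highest. Igfbp5 was lower than control with full-length NFIA by 0.51 on the log2 scale (SE 0.106, limma adjusted p = 0.00145) and higher with the mutant by 0.35 (SE 0.106, limma adjusted p = 0.0214). The latter call was lost without control replicate 3 or mutant replicate 2 or 3 (0.27 to 0.33, adjusted p of 0.0555 to 0.0816). From day 0 to day 7 Igfbp5 fell in control cells by 1.28 (SE 0.0900, limma adjusted p = 8.80e-10) and rose with full-length NFIA by 3.10 (SE 0.0900, limma adjusted p = 7.03e-15).

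With forskolin Igfbp5 had 311, 309 and 315 FPKM in control cells, 202, 235 and 201 with full-length NFIA, and 494, 521 and 553 with the mutant. The mutant libraries were again above all others. They exceeded control by 0.74 on the log2 scale (SE 0.0730, limma adjusted p = 1.77e-05) and full-length NFIA by 1.30 (SE 0.0730, limma adjusted p = 6.43e-08). Forskolin raised Igfbp5 with the mutant by 0.52 (SE 0.0948, limma adjusted p = 0.000491). In control cells the response was 0.12 (limma adjusted p = 0.424), and the difference between these responses was 0.40 with a limma adjusted p of 0.104.

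**Figure D4:**
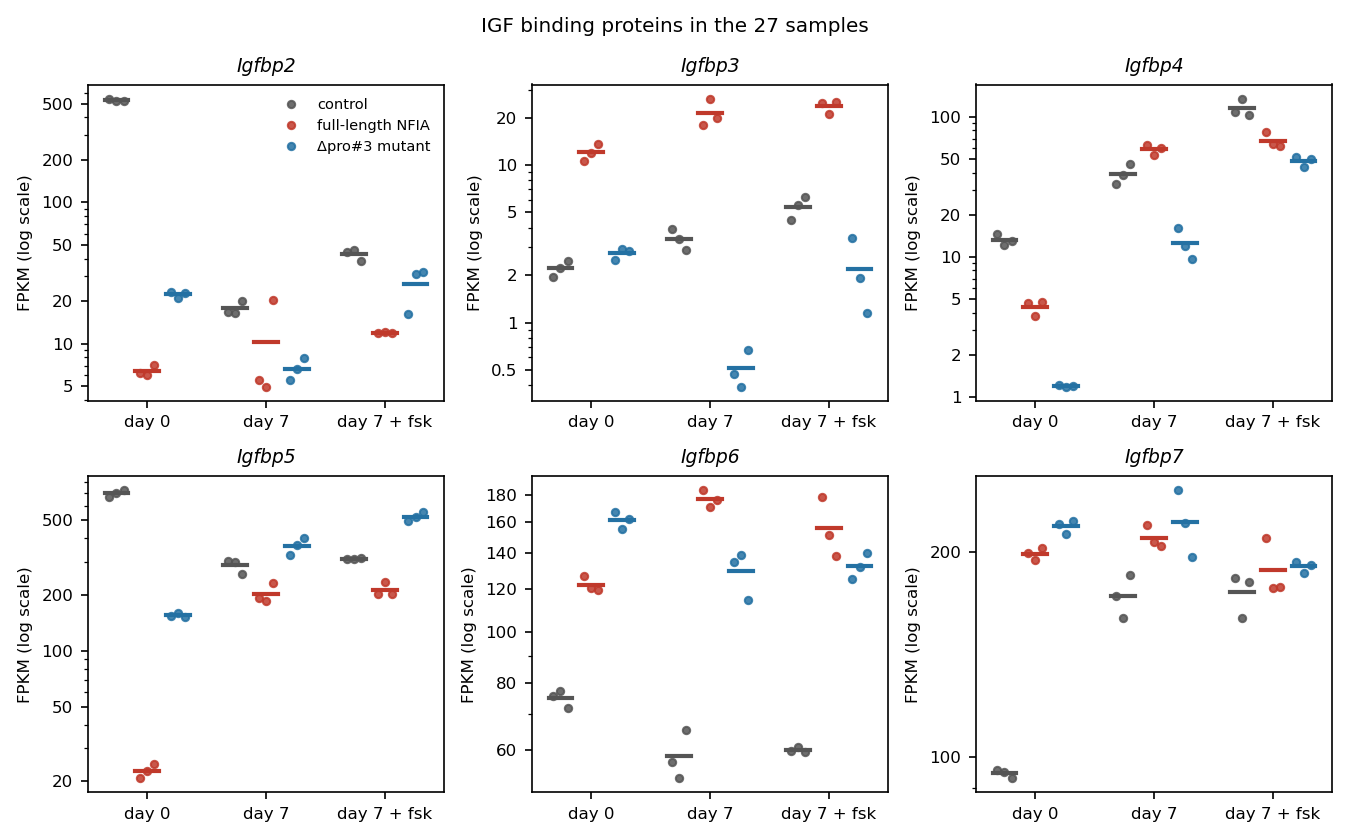
FPKM (y axes, log scale) of the 6 binding proteins in each sample (points) with group means (lines), for control (grey), full-length NFIA (red) and the Δpro#3 mutant (blue). The day 0 control libraries stand alone at the top for Igfbp2 (524 to 541 FPKM), the day 7 libraries of the mutant at the bottom for Igfbp3 (0.392 to 0.671 FPKM), and 1 day 7 library with full-length NFIA lies at the control level for Igfbp2.

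Igfbp3, the main carrier of IGFs in blood, was high with full-length NFIA at each stage and lowest with the mutant at day 7. At day 0 it had 1.95, 2.21 and 2.45 FPKM in control cells, 10.7, 12.0025 and 13.7 with full-length NFIA, and 2.49, 2.92 and 2.86 with the mutant. At day 7 it had 3.93, 3.39 and 2.90 FPKM in control cells, 17.9, 26.3 and 19.8 with full-length NFIA, and 0.471, 0.392 and 0.671 with the mutant. The groups did not overlap at either time, but the mutant was just above control at day 0 and far below it at day 7. Full-length NFIA raised Igfbp3 by 2.03 at day 0 (SE 0.0873, limma adjusted p = 3.97e-09) and by 2.33 at day 7 (SE 0.140, limma adjusted p = 1.53e-07) on the log2 scale. The log2 difference of the mutant at day 7 was -1.54 from control (SE 0.140, limma adjusted p = 1.94e-05) and -3.87 from full-length NFIA (SE 0.140, limma adjusted p = 6.88e-09). The day 7 mutant values rest on 13, 21 and 29 fragments.

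With forskolin Igfbp3 had 4.48, 5.56 and 6.25 FPKM in control cells, 24.7, 21.2 and 25.1 with full-length NFIA, and 3.46, 1.92 and 1.15 with the mutant. The order was that of day 7, without overlap. Full-length NFIA raised Igfbp3 by 1.95 over control (SE 0.215, limma adjusted p = 1.08e-05) and the mutant lay 1.07 below control (log2 difference -1.07, SE 0.215, limma adjusted p = 0.00209). Forskolin raised it with the mutant by 1.01 (SE 0.200, limma adjusted p = 0.000914), and the response in control cells was 0.54 (limma adjusted p = 0.0660).

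Igfbp4, which binds IGFs until the protease PAPPA cuts it, rose over the protocol in control cells and with full-length NFIA. With the mutant it was also higher at day 7 than at day 0, not tested. Forskolin raised Igfbp4 in control cells and with the mutant. At day 0 it had 14.5, 12.2 and 12.9 FPKM in control cells, 4.66, 3.77 and 4.72 with full-length NFIA, and 1.22, 1.18 and 1.197 with the mutant. Here the mutant, not full-length NFIA, had the lowest libraries. Full-length NFIA lowered Igfbp4 by 1.40 on the log2 scale (SE 0.0782, limma adjusted p = 3.45e-08), and the mutant stood 2.68 below control, not tested. At day 7 Igfbp4 had 33.3, 38.4 and 46.2 FPKM in control cells, 63.0, 53.6 and 59.6 with full-length NFIA, and 16.1, 11.97 and 9.71 with the mutant. The order of control and full-length NFIA was now the reverse, and the mutant was still lowest. Full-length NFIA was above control by 0.58 (SE 0.162, limma adjusted p = 0.00844, and 0.0544 with no filter on low values), and the mutant was below control by 1.58 (SE 0.162, limma adjusted p = 4.07e-05) and below full-length NFIA by 2.16 (SE 0.162, limma adjusted p = 1.21e-06).

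After forskolin Igfbp4 had 108, 135 and 104 FPKM in control cells, 77.4, 64.0 and 61.7 with full-length NFIA, and 51.4, 44.0 and 49.7 with the mutant. Control cells were then the highest, without overlap. Forskolin raised Igfbp4 in control cells by 1.53 (SE 0.151, limma adjusted p = 1.68e-06) and with the mutant by 1.88 (SE 0.151, limma adjusted p = 8.12e-08), and with full-length NFIA the response was 0.20 (limma adjusted p = 0.283). The response with full-length NFIA minus that in control cells was -1.34 on the log2 scale (SE 0.214, limma adjusted p = 0.000199). The corresponding difference for the mutant was 0.35 (limma adjusted p = 0.408).

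Igfbp6, which prefers IGF2 over IGF1, and Igfbp7, which binds IGFs weakly, were higher with either protein at day 0. Igfbp6 had 72.0 to 77.6 FPKM in control cells at day 0, 119 to 127 with full-length NFIA and 155 to 167 with the mutant. Its day 7 levels were 53.2 to 65.6, 171 to 183 and 114 to 139 FPKM, in the same order, so the 2 proteins had changed places while control stayed lowest. Full-length NFIA raised Igfbp6 by 0.70 at day 0 (SE 0.0395, limma adjusted p = 3.94e-08), 1.58 at day 7 (SE 0.0898, limma adjusted p = 1.02e-07) and 1.36 with forskolin (SE 0.0837, limma adjusted p = 9.53e-08), on the log2 scale. The mutant was above control by 1.13 at day 7 (SE 0.0898, limma adjusted p = 8.59e-06) and by 1.13 with forskolin (SE 0.0837, limma adjusted p = 2.40e-06).

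Igfbp7 had the narrowest range of the 10, with group means of 94.5 to 221 FPKM. At day 0 it had 93.0 to 95.5 FPKM in control cells, 195 to 203 with full-length NFIA and 212 to 222 with the mutant. Control cells were lowest and the groups did not overlap. Full-length NFIA raised it by 1.07 (SE 0.0288, limma adjusted p = 9.96e-11) at day 0 and by 0.29 at day 7 (SE 0.0841, limma adjusted p = 0.0110), and with forskolin the difference was 0.11 (limma adjusted p = 0.235). Scaling the libraries by their median ratio, which moved the median of all genes in that last comparison from -0.17 to -0.01, made it 0.30 with an adjusted p of 0.00472. The mutant was above control by 0.36 at day 7 (limma adjusted p = 0.00599) and differed by 0.13 with forskolin (limma adjusted p = 0.201).

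The summed FPKM of the 6 binding proteins showed how far these shifts changed the make-up of the family. The sum was 1414 ± 16.2 (SD, n = 3) in control cells at day 0, 367 ± 6.34 with full-length NFIA and 561 ± 7.38 with the mutant, and at day 7 the means were 579, 679 and 736 in that order. In control cells at day 0, Igfbp5 held 49.4% ± 1.35 and Igfbp2 37.5% ± 0.980 of the sum (SD, n = 3). With full-length NFIA these shares were 6.18% ± 0.501 and 1.76% ± 0.133, and Igfbp7 held 54.2% ± 0.198. With the mutant at day 0, Igfbp5 held 27.6% ± 1.18 and Igfbp7 38.9% ± 0.556. At day 7 Igfbp5 led in control cells (49.7% ± 4.33) and with the mutant (49.7% ± 5.16), and with full-length NFIA Igfbp5 (29.7% ± 2.40), Igfbp7 (30.9% ± 1.97) and Igfbp6 (26.1% ± 1.12) had near equal shares. Igfbp2 held at most 6.07% of the sum in any group other than day 0 control cells.

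**Figure D5:**
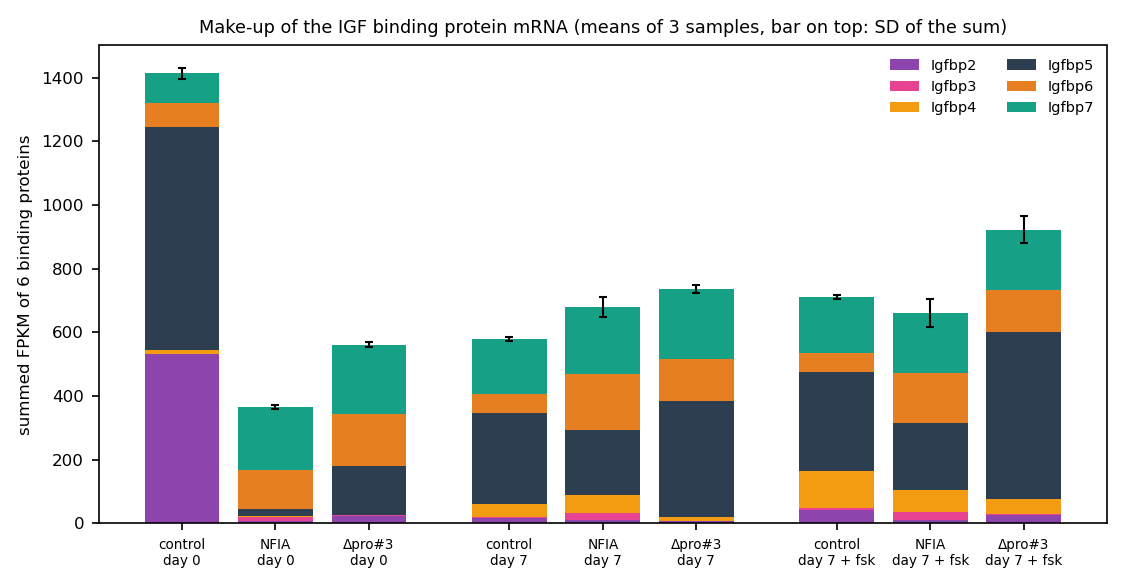
Summed FPKM of the 6 binding proteins (y axis) in the 9 groups, stacked by gene, as means of 3 samples with the SD of the sum. Igfbp2 and Igfbp5 fill most of the day 0 control bar (1414 FPKM), and Igfbp6 and Igfbp7 fill most of the day 0 bar with full-length NFIA (367 FPKM).

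From day 0 to day 7, 5 of the 9 IGF genes tested rose and 4 fell in control cells, beside 36% of all genes that rose and 42.7% that fell, and with full-length NFIA 5 of 10 rose and 3 fell, beside 33.2% and 46.5%. With a change over 3-fold, Igf2 was the 1 gene that rose in control cells (3.65% of all genes), and Igf2, Igfbp4 and Igfbp5 rose with full-length NFIA (5.38%). With the mutant, not tested, Igf2 and Igfbp4 were over 3-fold higher (3.91%) and Igfbp2 over 3-fold lower (2.93%) at day 7 than at day 0. Igfbp4 rose by 3.47 with full-length NFIA (SE 0.138, limma adjusted p = 3.88e-13) and by 1.50 in control cells (SE 0.138, limma adjusted p = 2.98e-08), on the log2 scale. Igf1 rose in control cells by 1.24 (SE 0.141, limma adjusted p = 4.06e-07) and fell with full-length NFIA by 0.68 (SE 0.141, limma adjusted p = 0.000313). For Igfbp2 with full-length NFIA the difference was 0.34 (limma adjusted p = 0.318), and -0.25 without day 7 replicate 3 (adjusted p = 0.0436).

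The difference that full-length NFIA made was itself different at day 7 from day 0 for 7 of the 9 IGF genes tested, 4 in the higher and 3 in the lower direction, beside 31.1% and 40.1% of all genes. Past 3-fold as well were Igfbp4 and Igfbp5 in the higher (4.53%) and Igf1 in the lower direction (3.09%). For Igfbp5 the effect was less negative at day 7 by 4.38 on the log2 scale (SE 0.127, limma adjusted p = 3.68e-14), and for Igfbp4 it went from below to above 0, a difference of 1.98 (SE 0.196, limma adjusted p = 1.32e-07). For Igf1 the effect was smaller at day 7, by a difference of -1.92 (SE 0.199, limma adjusted p = 2.33e-07). For Igfbp3 the difference was 0.30 (limma adjusted p = 0.137). Among all 9 groups, the day 0 control libraries held the highest Igfbp2, Igfbp5, Igf1r and Igf2r and the lowest Igf1 and Igfbp7, and the day 0 libraries with full-length NFIA held the lowest Igfbp5 and Igf2.

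Forskolin changed 4 of the 10 IGF genes in control cells, all upward (Igf1, Igf1r, Igfbp2 and Igfbp4), beside 7.05% of all genes that rose. With full-length NFIA it changed 2, both downward (Igf2 and Igf2r), beside 41.5% that fell, and with the mutant 5 upward and 1 downward, beside 11.9% and 23.9%. With a change over 3-fold, Igfbp2 and Igfbp4 rose in the mutant (0.457% of all genes), and no IGF gene passed in control cells (0.392% of all genes in either direction) or with full-length NFIA (0.743%), where limma at an adjusted p under 0.05 alone called 4 and 2. The response with full-length NFIA was lower than in control cells for 4 of the 10 (Igf1, Igf2, Igf2r and Igfbp4), beside 21.5% of all genes, and none of these differences was over 3-fold (0.572% of all genes were). Of these, Igfbp4 alone kept its call in every alternative run, and the other 3 lost it when single libraries were left out or the libraries were scaled.

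Other genes of the IGF axis were taken from a fixed list of 16, of which 8 passed the filter on low values at day 0 and 10 at day 7. At each time 2 of them reached the minimum only through the libraries with full-length NFIA (Pappa2 and Stc1 at day 0, Igfals and Stc1 at day 7), and they were left out of the counts and described without a test. Of the other 6 at day 0, 1 rose and 4 fell with full-length NFIA, and of the other 8 at day 7, 2 rose and 5 fell. Over all genes, from which no such gene was left out, 37.7% rose and 35.6% fell at day 0, and 31.3% rose and 41.1% fell at day 7. Pappa2, a protease that cuts IGFBP3 and IGFBP5, had 0.167 to 0.222 FPKM in control cells at day 0, 11.1 to 12.2 with full-length NFIA and 0.213 to 0.234 with the mutant, a log2 difference of 3.42 with full-length NFIA. At day 7, where control cells also had over 3 FPKM, Pappa2 was lower with full-length NFIA than in control cells, by a log2 difference of -0.86 (limma adjusted p = 0.000124). Htra1, a serine protease that cuts IGFBP5, had 82.1 to 85.8 FPKM in control cells and 14.1 to 15.5 with full-length NFIA at day 0, a fall of 2.40 (SE 0.0426, limma adjusted p = 5.00e-12). It was also lower at day 7, with 242 to 280.0 FPKM against 55.3 to 66.7 (log2 difference -2.02, limma adjusted p = 8.73e-09).

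Igfals, which stabilises the complex of IGF and IGFBP3 in blood, had 0 to 0.0281 FPKM in control cells at day 7 and 5.86 to 6.18 with full-length NFIA, a log2 difference of 2.79. With the mutant it had 0.281 to 0.754 FPKM, a log2 difference of -2.27 from full-length NFIA. Stc1, a secreted inhibitor of pappalysins, had 0.0318 to 0.175 FPKM in control cells at day 7, 2.32 to 2.68 with full-length NFIA and 0.0945 to 0.272 with the mutant. Igfn1, which despite its symbol is a muscle protein with immunoglobulin and fibronectin domains, had 5.94 to 8.19 FPKM in control cells at day 7, 0.982 to 2.03 with full-length NFIA and 8.02 to 9.29 with the mutant, and was lower with full-length NFIA by a log2 difference of -1.71 (SE 0.159, limma adjusted p = 4.25e-06). Pappa2 rose with forskolin in cells with full-length NFIA by 1.84 (SE 0.110, limma adjusted p = 1.30e-09), from 1.80 to 2.25 FPKM up to 9.14 to 10.2, and more than in control cells by 1.67 (limma adjusted p = 1.10e-06). Pappa, which cuts IGFBP4, rose with forskolin in the mutant by 1.90 (SE 0.0931, limma adjusted p = 1.97e-10), from 0.617 to 0.645 FPKM up to 4.83 to 5.31. It also rose in control cells by 1.04 (limma adjusted p = 5.76e-07) and with full-length NFIA by 0.51 (limma adjusted p = 0.000219), and the mutant's response exceeded that of control cells by 0.86 (limma adjusted p = 0.000994). Igfbp1, the remaining binding protein of the classical set, was listed at 0 in all 27 libraries.

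Of 34 genes for signal transduction below the insulin and IGF1 receptors, 32 were tested. With full-length NFIA 6 rose and 19 fell at day 0 (37.7% and 35.6% of all genes), and 13 rose and 13 fell at day 7 (31.3% and 41.1%). The median log2 difference was -0.22 at day 0 and 0.04 at day 7, beside 0.01 and -0.08 over all genes. Grb14, an adaptor that restrains the insulin receptor, had 0.524 to 0.605 FPKM in control cells at day 0 and 4.69 to 5.57 with full-length NFIA, a rise of 1.93 (SE 0.0649, limma adjusted p = 5.42e-10). Its relative Grb10, an imprinted adaptor that restrains both receptors, had 3.89 to 5.08 FPKM in control cells at day 7 and 0.226 to 0.339 with full-length NFIA, a fall of 2.08 (SE 0.118, limma adjusted p = 1.01e-07). With the mutant Grb10 had 2.30 to 3.35 FPKM, above full-length NFIA by 1.60 (limma adjusted p = 1.09e-06).

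From day 0 to day 7 with full-length NFIA, Pik3r3, a regulatory subunit of PI3K, fell from 29.8 to 30.8 FPKM to 7.14 to 7.33, by 1.92 on the log2 scale (limma adjusted p = 2.58e-16). Eif4ebp1, a repressor of translation that mTOR inactivates, rose there from 55.6 to 70.04 FPKM to 198 to 229, by 1.82 (limma adjusted p = 1.95e-11).

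Among the docking proteins of the receptors, Irs2 had 3.41 to 4.15 FPKM with forskolin in control cells, 21.8 to 26.3 with full-length NFIA and 2.15 to 3.17 with the mutant, so that full-length NFIA stood apart by 2.42 above control (SE 0.112, limma adjusted p = 9.34e-09). It rose with forskolin in cells with full-length NFIA by 1.60 (SE 0.133, limma adjusted p = 5.26e-08), and the response was 0.06 in control cells (limma adjusted p = 0.808) and -0.05 with the mutant (limma adjusted p = 0.789). Irs1 fell in control cells from 40.4 to 42.8 FPKM at day 0 to 7.05 to 8.15 at day 7, by 2.34 on the log2 scale (SE 0.0453, limma adjusted p = 1.01e-16). With full-length NFIA it fell by 0.47 (limma adjusted p = 5.74e-08) and at day 7 it was 1.29 above control (limma adjusted p = 3.17e-08), a difference between the effects at day 7 and day 0 of 1.87 (limma adjusted p = 2.50e-13). Shc1, an adaptor to the MAPK pathway, had 46.2 to 47.5 FPKM with forskolin in control cells and 189 to 203 with full-length NFIA, a rise of 2.04 (SE 0.0622, limma adjusted p = 3.79e-10).

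The list of 10 imprinted growth genes, which shares H19 and Grb10 with the lists above and Igf2r with the family, had 5 members tested at day 0, and all 5 fell with full-length NFIA, beside 35.6% of all genes that fell. At day 7, 2 of 6 rose and 4 fell, beside 31.3% and 41.1% of all genes, and the list's median was -2.41 at day 0 and -1.08 at day 7, beside 0.01 and -0.08 over all genes. Peg3, a paternally expressed zinc finger gene, had 90.6 to 97.3 FPKM in control cells at day 0, 8.36 to 9.32 with full-length NFIA and 49.5 to 51.0 with the mutant, a fall of 3.26 with full-length NFIA (SE 0.0412, limma adjusted p = 4.88e-13). Mest, another paternally expressed gene, had 12.5 to 13.5, 1.64 to 1.69 and 1.06 to 1.79 FPKM, in that order, a fall of 2.41 with full-length NFIA (SE 0.0910, limma adjusted p = 1.36e-09). Cdkn1c, a maternally expressed inhibitor of the cell cycle, had 0.811 to 1.05 FPKM in control cells at day 7 and 4.27 to 9.96 with full-length NFIA, a rise of 1.85 (SE 0.249, limma adjusted p = 6.77e-05).

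The genes most like each member were found by the Pearson correlation of the 9 group means of log2(FPKM + 1) over 10177 other genes, as a description of groups that share constructs and time points. Most like Igfbp2 were Bnc2 (0.98), Edil3 (0.95), Syt13 (0.95), Htr1b (0.95) and Irgq (0.94). By Spearman correlation Syt13 held place 3 and Htr1b place 150, and over the 27 samples Bnc2 held place 1. Most like Igfbp5 were Akr1b8 (0.97), Tpcn1 (0.96) and Alox5 (0.96), and most like Igfbp4 were Tank (0.97), Hk2 (0.95) and Slc16a3 (0.94). Igfbp3 was most like Gosr2, Camp and Slc31a1 (0.93 each). Igf1 was most like 1110012L19Rik (0.90), Rps6ka5 (0.89) and Foxo1 (0.89), the last a transcription factor that insulin and IGF signalling restrains. Igf2 was most like Mrpl45, Vps39 and 2500002B13Rik (0.99 each), and Igf1r was most like Map4k4 (0.99) and Nt5dc2 (0.98). Within the family, the strongest opposite pattern was that of Igfbp2 and Igfbp7, with a correlation of -0.92 over the 9 group means, and Igfbp2 and Igfbp5 had 0.58. Control cells at day 0, used in selecting Igfbp2, stood apart for both genes of the opposite pair. They had 531 FPKM of Igfbp2 against at most 43.1 in other groups, and 94.5 of Igfbp7 against 172 to 221. The part of that group in the correlation was not tested.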

How the data were processed

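RNA was sequenced from 27 samples in 9 groups of 3. The deposited values are FPKM per gene, which the authors made after aligning with STAR 2.5.3a to mm9 and keeping unique reads counted on the matching strand. FPKM multiplied by gene length gave whole fragments for 100% of the values in every library (tolerance 0.0001), 9567769 to 27230965 per library, so these FPKM are relative to all counted fragments and a few strong genes can lower the rest. Replicates differed beyond counting noise (chi-square per gene 1.52 to 14.2).

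Genes with a mean of at least 0.5 FPKM over the samples of a fit were tested on log2(FPKM + 1), which understates changes of low genes, with limma 3.58.1 in R 4.3.3 (moderation with a trend, Benjamini-Hochberg over all genes tested). Fits held the 9 samples of a stage, or 18 samples for forskolin and for day 7 against day 0. Calls needed an adjusted p under 0.05, and were counted also with a change over 3-fold in FPKM + 1. The scripts were tested on simulated data. The same test on the recovered fragments (limma-voom) called 8933 of 12324 genes for full-length NFIA against control at day 7, where the FPKM gave 8917.

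Same-numbered replicates did not deviate together (mean correlation of deviations 0.01 at day 0, -0.03 at day 7 and 0.00 with forskolin). All members were named. Genes of the lists were named from those past both thresholds in comparisons with NFIA-expressing cells, by plan at most 4 per comparison and list. For the IGF axis list at day 7 this limit was passed, as Stc1 was named too. The most similar genes were the 5 highest for Igfbp2 and 3 for each other member whose group means of FPKM + 1 spanned over 3-fold, among genes with a group mean of at least 5 FPKM, and 1 of them is not reported here. The members, lists and tests were chosen with earlier results of these data known. Alternatives were a pseudocount of 0.1, no filter or one of 5 FPKM, median-ratio scaling, limma-voom, moderation without a trend, only the groups compared, the replicate number as a block, and each library left out. Promoter windows came from RefSeq and gene positions from GENCODE vM1. Protein sequences were not used here.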

Additional observations from a re-analysis of the deposited data

Results flagged for a closer look

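For 12 results the test of a difference between effects was past the threshold (limma, adjusted p under 0.05). The forskolin response was lower with full-length NFIA than in control cells for Igf1 (-0.75, adjusted p = 0.0309), Igf2 (-0.65, adjusted p = 0.0360), Igf2r (-0.31, adjusted p = 0.0400) and Igfbp4 (-1.34, adjusted p = 0.000199), and lower with the Δpro#3 mutant than in control cells for Igf1 (-2.11, adjusted p = 0.000118), all on the log2 scale. The effect of full-length NFIA was lower at day 7 than at day 0 for Igf1 (-1.92, adjusted p = 2.33e-07), Igf2 (-1.10, adjusted p = 0.000547) and Igfbp7 (-0.78, adjusted p = 1.03e-06). It was higher at day 7 for Igf1r (0.43, adjusted p = 0.000414), Igfbp4 (1.98, adjusted p = 1.32e-07), Igfbp5 (4.38, adjusted p = 3.68e-14) and Igfbp6 (0.89, adjusted p = 9.32e-07). Groups of 3 samples are too small for the test of single outlying samples.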

How the results depend on the processing

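Of 15 counts of IGF genes called, 12 stayed within 1.5 times the reported value under every alternative. The count for the forskolin response of control cells (4) was 2 with no filter on low values and 2 to 3 with single libraries left out (2 without control day 7 replicate 2 or forskolin replicate 1). The count for the response with full-length NFIA (2) was 2 to 5, with 5 without forskolin replicate 1. The count for the difference between these responses (4) was 1 with median-ratio scaling, 1 with no filter and 1 to 3 with single libraries left out (1 without control day 7 replicate 3 or control forskolin replicate 1 or 3). Scaling took the call there from Igf1, Igf2 and Igf2r. Leaving out day 7 replicate 3 with full-length NFIA turned the direction of Igfbp2, to -0.25 for day 7 against day 0 with full-length NFIA (range 0.67 to -0.25 over the libraries left out) and to 0.28 for mutant against full-length NFIA at day 7 (range -0.64 to 0.28). The cause was not tested, although that library held more Igfbp2 than the others of its group.

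Of 136 tested values, the pseudocount of 0.1 changed no call, no filter lost 13 calls (each at an adjusted p of 0.00844 or above in the reported fit), scaling lost 4 and gained 3, limma-voom gained 2, a minimum of 5 FPKM gained 1 among the values left, moderation without a trend lost 1, and fitting only the groups compared lost 3 and gained 3. Over 960 values with a library left out, 54 calls were lost and 7 gained with the direction kept, beside the 2 values of Igfbp2 that turned. With the replicate number as a block, which has no pairing behind it here, each count stayed within 1.5 times, and 1 call was gained, for Igfbp7 in the forskolin response of the mutant (-0.21, adjusted p = 0.0333 against 0.0621 without the block). Genes near 1 FPKM, such as Igfbp3 in the mutant at day 7, rest on few fragments, and their folds are understated on this scale.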
